A study of Homo sapiens with 6 samples.

Results

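The 10 genes described here build, sulfate, trim or carry heparan sulfate: HS6ST1, HS6ST2, HS6ST3, HS2ST1, NDST1, EXT1, EXT2, SULF2, SDC1 and SDC4. They were taken by name from a gene table of 54644 rows, of which 12 carried a member's name. The group was chosen by a measured value, the lower count of HS6ST3 in cells that overexpress cortactin, so the HS6ST3 difference is given below as a description with no test. The cells were SKBR3, a HER2-positive breast cancer line of epithelial origin. One set had been stably infected with a lentiviral pLVX vector carrying the CTTN cDNA, which encodes the actin-binding protein cortactin, and the control set with the pLVX vector alone, both under puromycin selection. Whether each set was a pool or a clone was not given in the sources used here. Poly(A) RNA was sequenced from 3 biological replicates of each set, called CTTN 1 to 3 and control 1 to 3.

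Heparan sulfate is a long chain of alternating sugars attached to core proteins at the cell surface and in the matrix. The chain is polymerised in the Golgi by the EXT1 and EXT2 complex, N-sulfated by NDST enzymes, 2-O-sulfated by HS2ST1 and 6-O-sulfated by the HS6ST enzymes, while SULF enzymes remove 6-O-sulfate outside the cell. The resulting sulfation pattern sets which growth factors, morphogens and receptors the chain binds, FGF and Wnt ligands among them. Syndecans such as SDC1 and SDC4 are transmembrane core proteins that carry such chains, and SDC1 is abundant on epithelial cells.

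HS6ST3 was the least expressed of the 10 genes and the one whose groups lay farthest apart in log2 fold change. Its level in FPKM (fragments per kilobase of transcript and library depth, as deposited) was 0.643, 0.714 and 0.749 in control 1 to 3 and 0.222, 0.298 and 0.16 in CTTN 1 to 3. HS6ST1, the most abundant 6-O-sulfotransferase mRNA, and HS6ST2 were both expressed in every library. None of the 9 other genes passed the test over all genes, in which 3.82% of genes did. HS6ST1 and EXT2 had higher counts in each CTTN library than in any control library, and HS6ST2, HS2ST1, EXT1, SDC1 and SDC4 had lower ones, where 38.7% of all genes had groups that did not overlap once scaled to library size.

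The stretches just before the RefSeq start of the 6-O-sulfotransferase genes (assembly GRCh38.p14) are shown because these 3 genes encode the same activity and had different levels and different CTTN-to-control differences. Each is 250 bases long, on the strand of the gene, with GGGCGG or its reverse complement in capitals. The HS6ST1 window lies at chr2:128318869-128319118 on the minus strand, the HS6ST2 window at chrX:132961371-132961620 on the minus strand, and the HS6ST3 window at chr13:96089857-96090106 on the plus strand.
HS6ST1: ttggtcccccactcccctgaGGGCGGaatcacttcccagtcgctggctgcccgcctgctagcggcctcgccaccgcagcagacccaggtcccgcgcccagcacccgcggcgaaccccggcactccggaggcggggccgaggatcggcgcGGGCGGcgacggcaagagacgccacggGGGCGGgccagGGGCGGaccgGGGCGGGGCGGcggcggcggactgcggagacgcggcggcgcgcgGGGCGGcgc
HS6ST2: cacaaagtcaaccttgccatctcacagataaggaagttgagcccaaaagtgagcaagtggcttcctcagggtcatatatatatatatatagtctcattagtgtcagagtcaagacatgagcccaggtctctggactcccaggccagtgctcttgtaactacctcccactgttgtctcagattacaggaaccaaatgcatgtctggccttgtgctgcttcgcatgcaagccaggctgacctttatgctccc
HS6ST3: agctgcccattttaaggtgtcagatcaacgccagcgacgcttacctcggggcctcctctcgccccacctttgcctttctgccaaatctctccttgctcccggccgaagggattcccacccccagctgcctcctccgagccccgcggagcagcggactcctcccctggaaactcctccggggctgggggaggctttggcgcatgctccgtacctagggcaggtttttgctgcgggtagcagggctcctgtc

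The HS6ST1 window was rich in G and C (80.4%), with 40 CG dinucleotides and 7 GGGCGG matches, a pair of which overlap by 1 base. The HS6ST3 window held 64.4% G and C, 15 CG dinucleotides and no match, and the HS6ST2 window 48.0%, 1 CG dinucleotide and no match. GGGCGG on either strand was present in 42.6% of the 35116 RefSeq windows of this length, whose median was 58.0% G and C and 11 CG dinucleotides. Windows were taken for 9 of the 10 genes, and EXT1 was left out. The deposited HS6ST3 locus began 732 bases inside the RefSeq gene, and that of HS6ST2 reached 25 bases into the window shown.

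Some facts of the whole series bear on every value. Estimated counts per library summed to between 35695339 and 39318390. The FPKM of all genes summed to 704018, 605260 and 852256 in CTTN 1 to 3 and to between 603634 and 624680 in the controls. CTTN mRNA, the overexpressed gene, had a higher count in each CTTN library (18999 to 37144) than in any control library (10912 to 11265), with a log2 fold change of 1.35 ± 0.224 (SE, n = 3 against 3, adjusted p = 0.0276, edgeR quasi-likelihood test with Benjamini-Hochberg adjustment). CTTN 1 and CTTN 3 differed from the controls along transcript length and CTTN 2 did not. For the 1502 genes with transcripts over 6000 bases, the median log2 difference from the control mean was -0.42 in CTTN 1, -0.01 in CTTN 2 and -0.77 in CTTN 3, and between -0.07 and 0.04 in the controls. For the 1360 genes with the shortest transcripts, of median length 720 bases, it was 0.33, 0.01 and 0.78 in CTTN 1, 2 and 3. The trend has no label among the descriptions of the samples, and its part in the differences below was not tested. For that reason each gene is also given with CTTN 2 as the only CTTN library and with a fit that takes out transcript length and GC content, both chosen after the data were seen.

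Luminal epithelial markers had a summed level of 7639 to 7950 FPKM in the controls and 7022 to 10820 in the CTTN libraries. The 10820 was that of CTTN 3, the library with the highest FPKM total, and these sums are not scaled to the totals. Of the 8 luminal genes (ERBB2, GRB7, EPCAM, CDH1, KRT8, KRT18, KRT19 and KRT7) only CDH1, which encodes E-cadherin, was under 1 FPKM. The 5 fibroblast markers, of which all but COL1A1 were under 1 FPKM and DCN and LUM were at 0 in 5 of 6 libraries each, summed to 3.51 to 4.45 FPKM in controls and 2.94 to 4.30 in CTTN libraries. The 4 endothelial markers, of which all but CDH5 were under 1 FPKM, summed to 4.2 to 4.66 and 1.56 to 2.2. In bulk RNA a lower count from fewer expressing cells and from less RNA per cell cannot be told apart.

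The genes spanned more than 2 orders of magnitude per length of transcript. Mean control levels were 170 FPKM for SDC1, 70.2 for SDC4, 52.7 for NDST1, 27.9 for EXT2, 19.7 for EXT1, 16.1 for HS2ST1, 10.6 for HS6ST1, 3.63 for SULF2, 2.88 for HS6ST2 and 0.702 for HS6ST3. No neighbours in that order overlapped among the 3 control libraries. The core proteins were thus the most abundant mRNAs, the polymerases and the N- and 2-O-sulfotransferases lay in the middle, and SULF2 and the 2 minor 6-O-sulfotransferases were the lowest.

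**Figure D1:**
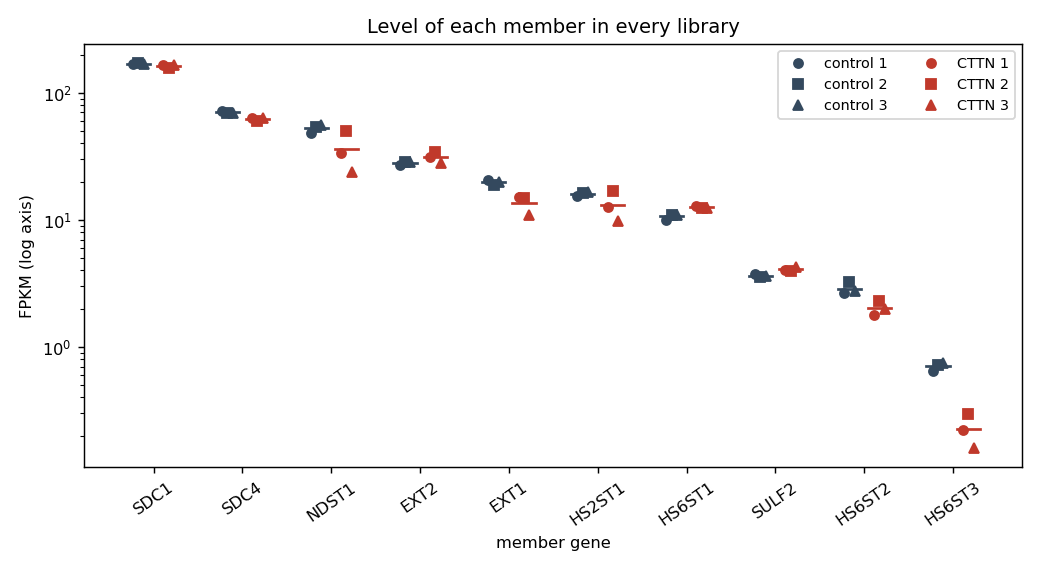
Level of each member gene in FPKM (vertical log axis) in the 3 control libraries (dark) and the 3 CTTN libraries (red), ordered by mean control level, with a bar at each group's mean. HS6ST3 is the lowest gene, with control libraries between 0.643 and 0.749 FPKM and CTTN libraries between 0.16 and 0.298.

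HS6ST3 encodes a heparan sulfate 6-O-sulfotransferase, which transfers sulfate to the 6-O position of glucosamine. Its locus in the deposited table ran over chromosome 13 from 96090839 to 96839562. The estimated count was 166.1, 185.9 and 194.5 in control 1 to 3 and 60.1, 78.2 and 45.4 in CTTN 1 to 3. The groups did not overlap, CTTN 2 was the nearest to the controls and CTTN 3 the farthest. The fitted log2 fold change of CTTN against control was -1.58 ± 0.203 (SE, n = 3 against 3), a level 0.335 times that of the control. Taken one library at a time, the log2 difference from the control mean was -1.57 in CTTN 1, -1.20 in CTTN 2 and -1.96 in CTTN 3. With CTTN 2 alone it was -1.23 ± 0.199 (SE), and with length and GC offsets it was -1.22 ± 0.115. HS6ST3 has a long transcript (7346 bases), a class whose median difference was -0.37 over all tested genes. Its values selected the group, so none of these differences carries a test here.

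Transcripts of HS6ST3 were assigned to 2 start sites. The one represented by ENST00000620595 had estimated counts of 126.2, 141.8 and 99.7 in control 1 to 3 and 37.5, 21.2 and 31.6 in CTTN 1 to 3. Its groups did not overlap, and its log2 fold change was -2.02 ± 0.337 (SE). The other, represented by ENST00000376705, had 39.9, 44.1 and 94.8 in the controls and 22.7, 57 and 13.8 in the CTTN libraries. Here the groups overlapped, with CTTN 2 above control 1 and 2, and the log2 fold change was -0.92 ± 0.663 (SE). The split of reads between start sites is an estimate by the authors' software, and at these counts it varied from library to library: the share at ENST00000620595 was 76, 76.3 and 51.2% in the controls and 62.3, 27.1 and 69.6% in CTTN 1 to 3.

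Genes around HS6ST3 on chromosome 13 lay nearer to 0. Within 2 Mb, 14 genes were tested and 0 passed the edgeR test (2 at an unadjusted p under 0.05, and 1 called by DESeq2), beside 3.82%, 29.4% and 14.3% of all genes by the same rules. Their log2 fold changes ran from -0.73 to 0.14 with a median of -0.08. The 3 nearest tested genes were UGGT2, a glycoprotein folding sensor, with -0.01, DNAJC3, a chaperone partner of the endoplasmic reticulum, with 0.02, and MBNL2, a splicing factor, with -0.28. Their adjusted p-values were 0.928, 0.879 and 0.207 (edgeR quasi-likelihood test with Benjamini-Hochberg adjustment).

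HS6ST1 is the 6-O-sulfotransferase with the highest mRNA level in these cells. Its estimated counts were 1401.1, 1480.2 and 1543.4 in control 1 to 3 and 1683.5, 1786.2 and 1603.6 in CTTN 1 to 3. Every CTTN library was above every control library, although control 3 and CTTN 3 lay close together. HS6ST1 had a log2 fold change of 0.20 ± 0.086 (SE, 95% interval -0.04 to 0.44, adjusted p = 0.176, edgeR quasi-likelihood test with Benjamini-Hochberg adjustment). With CTTN 2 alone it was 0.27, and over 17 alternative settings it ran from 0.13 to 0.27. In the settings with more than 1 CTTN library HS6ST1 did not pass, with adjusted p-values from 0.112 to 0.405 by their own tests.

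HS6ST2 encodes the third enzyme of the family. It had estimated counts of 358, 402.4 and 353.5 in control 1 to 3 and 252.9, 299 and 292.6 in CTTN 1 to 3. The groups did not overlap, and CTTN 1 was the lowest library. Fitted over all libraries the log2 fold change was -0.40 ± 0.111 (SE, 95% interval -0.71 to -0.09), with an adjusted p of 0.0897 in the edgeR quasi-likelihood test with Benjamini-Hochberg adjustment. It was below 0 in 17 of 17 alternatives (-0.49 to -0.16, adjusted p from 0.0161 to 0.38) and passed in 3 of them, among them DESeq2 with an adjusted p of 0.0376. With length and GC offsets it was -0.16, the value nearest to 0. A second row carrying this gene's name was at 0 in all libraries.

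Because the 3 enzymes carry out the same sulfation step, their FPKM were also added up. The sum was 13.3, 14.9 and 14.4 FPKM in control 1 to 3 and 14.9, 15 and 14.5 in CTTN 1 to 3, so the summed level overlapped between the groups. HS6ST1 made up 75.3, 73.6 and 75.5% of it in the controls and 86.4, 82.6 and 85.3% in the CTTN libraries. HS6ST2 took 19.9, 21.6 and 19.3% in the controls and 12.1, 15.4 and 13.6% in the CTTN libraries. HS6ST3 took 4.84, 4.79 and 5.21% and 1.49, 1.98 and 1.10%. For each of the 3 genes the shares of the groups did not overlap, CTTN 2 included. The shares sum to 100% by construction and HS6ST3 chose the group, so they are a description.

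**Figure D2:**
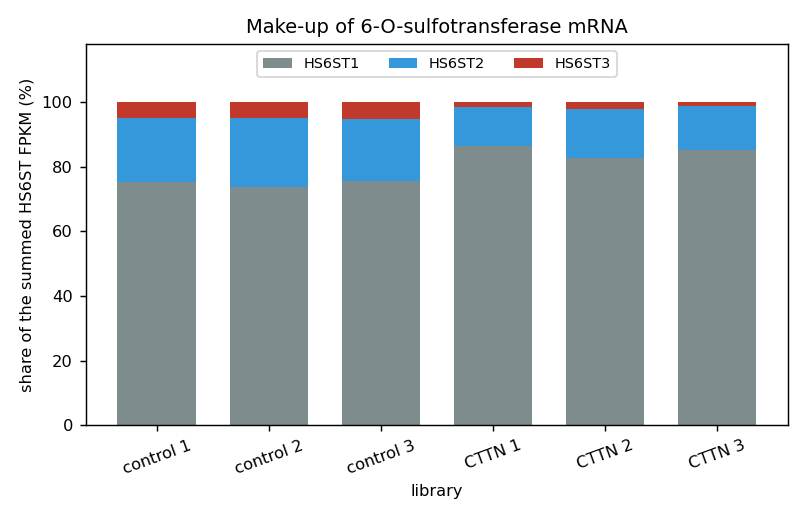
Share of the summed FPKM of HS6ST1, HS6ST2 and HS6ST3 (vertical axis, %) held by each gene in the 6 libraries, as stacked bars. HS6ST1 holds 73.6 to 75.5% in the controls and 82.6 to 86.4% in the CTTN libraries, and HS6ST3 holds at most 1.98% in the CTTN libraries.

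NDST1 replaces the acetyl group of glucosamine by sulfate, a step on which the later sulfations of the chain depend. Its estimated counts were 13178.3, 14329.4 and 14718 in control 1 to 3 and 9460.3, 13320 and 6729.1 in CTTN 1 to 3. CTTN 2 lay inside the control range while CTTN 1 and 3 lay below it. For NDST1 the log2 fold change was -0.52 ± 0.226 (SE, 95% interval -1.15 to 0.11, adjusted p = 0.177, edgeR quasi-likelihood test with Benjamini-Hochberg adjustment). CTTN 2 alone differed from the controls by -0.08 (SE 0.066), and CTTN 1 and CTTN 3 by -0.57 and -1.06, the order of the length trend. With length and GC offsets NDST1 fell, by 0.27 ± 0.062 on the log2 scale (adjusted p = 0.0229 in edgeR), the adjusted p ranging from 0.0033 to 0.435 over 17 alternatives. NDST1 has the longest transcript of the group, 7994 bases. A second row of the same name held 3.1 to 10.5 counts and is not part of these values.

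HS2ST1 adds sulfate to the 2-O position of the uronic acid. The deposited locus also covered LINC01140 and another non-coding transcript, so its counts are not those of the enzyme alone. They were 2662.9, 2822.6 and 2701.6 in control 1 to 3 and 2198.7, 2504.3 and 1948.2 in CTTN 1 to 3. The groups did not overlap in counts, with CTTN 2 the highest of the CTTN libraries. The log2 fold change was -0.30 ± 0.106 (SE, 95% interval -0.60 to -0.01, adjusted p = 0.132, edgeR quasi-likelihood test with Benjamini-Hochberg adjustment). Over 17 alternatives it ran from -0.40 to 0.07, the adjusted p from 0.00709 to 0.963, and it was above 0 in 2, one of them the fit with length and GC offsets (0.07).

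EXT1 and EXT2 together form the polymerase that extends the chain. EXT1 had estimated counts of 1843.7, 1918.4 and 1875.8 in control 1 to 3 and 1606.8, 1693.3 and 1378.6 in CTTN 1 to 3. No CTTN library reached the controls. EXT1 had a log2 fold change of -0.27 ± 0.099 (SE, 95% interval -0.54 to 0.00, adjusted p = 0.138, edgeR quasi-likelihood test with Benjamini-Hochberg adjustment). With length and GC offsets the sign turned, to 0.09 (adjusted p = 0.498), and over 17 alternatives the adjusted p ran from 0.0181 to 0.928. The EXT1 transcript measures 6517 bases, so it belongs to the long class.

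EXT2 had estimated counts of 3259.2, 3541.8 and 3470.9 in control 1 to 3 and 3982.7, 4109.7 and 3654.9 in CTTN 1 to 3. Each CTTN library was above each control library. The log2 fold change was 0.19 ± 0.083 (SE, 95% interval -0.04 to 0.42, adjusted p = 0.173, edgeR quasi-likelihood test with Benjamini-Hochberg adjustment). With length and GC offsets EXT2 rose, by 0.31 ± 0.050 (adjusted p = 0.00499 in edgeR), and with CTTN 2 alone the value was 0.26. The adjusted p of EXT2 ranged from 0.000631 to 0.4 over 17 alternatives. The value was above 0 in 17 of 17.

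Most EXT2 reads were divided between 2 start sites, with different patterns over the libraries. The site represented by ENST00000395673 had estimated counts of 1264.6, 1426.2 and 1384.9 in control 1 to 3 and 2354.3, 1605.3 and 2572.8 in CTTN 1 to 3. No libraries overlapped, and CTTN 2 was the nearest to the controls. The other site, represented by ENST00000533608, had 1972.4, 2111.3 and 2063 in the controls and 1595, 2467.6 and 1080.7 in the CTTN libraries, where CTTN 2 lay above and CTTN 1 and 3 below all controls. The first site's log2 fold change of 0.69 ± 0.194 (SE) had an adjusted p of 0.498 in the edgeR test. Of 45 start sites listed for the 10 genes, 42 had a count and 23 were tested. Among the 21 of genes other than HS6ST3, 0 passed (2 at an unadjusted p under 0.05), beside 0% of the 35916 start sites tested over all genes, of which 3569 had an unadjusted p under 0.05.

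**Figure D3:**
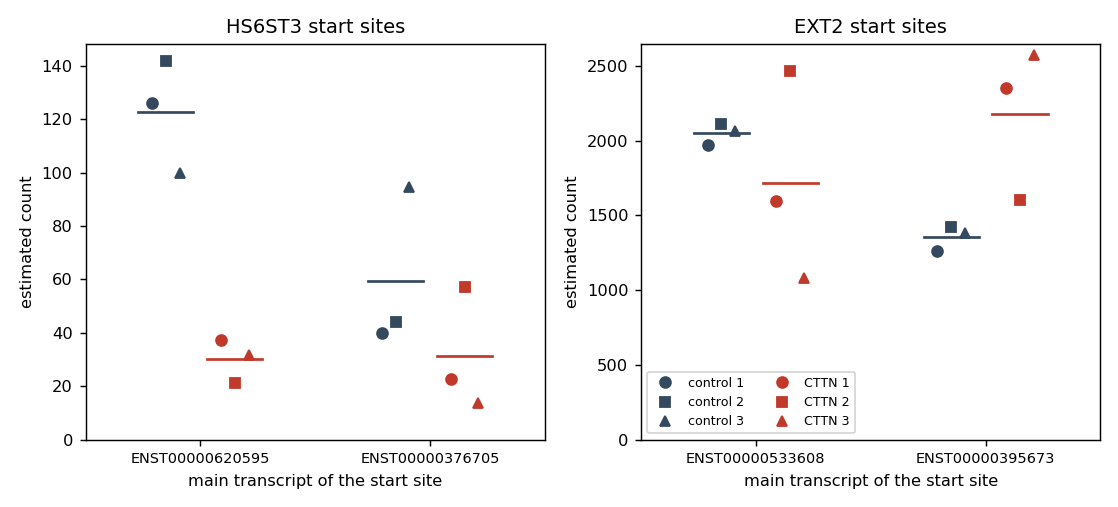
Estimated counts (vertical axes) at the 2 main start sites of HS6ST3 (left) and EXT2 (right), named by their main transcript, in the 3 control libraries (dark) and the 3 CTTN libraries (red), with a bar at each group's mean. At ENST00000620595 of HS6ST3 the controls are between 99.7 and 141.8 and the CTTN libraries between 21.2 and 37.5.

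SULF2 is the extracellular sulfatase that removes 6-O-sulfate from finished chains. Its estimated counts were 443.6, 411.1 and 435.9 in control 1 to 3 and 402.2, 480.7 and 384.6 in CTTN 1 to 3. The groups overlapped, with CTTN 2 the highest of all libraries and CTTN 3 the lowest. The log2 fold change was -0.03 ± 0.111 (SE, 95% interval -0.34 to 0.28, adjusted p = 0.875, edgeR quasi-likelihood test with Benjamini-Hochberg adjustment), and SULF2 passed in 0 of 17 alternatives (adjusted p from 0.287 to 0.978). On the FPKM scale the levels were 3.77, 3.52 and 3.59 in control 1 to 3. All lay below the 4.05, 3.94 and 4.22 of CTTN 1 to 3. These levels are not scaled to the FPKM totals, which were higher in CTTN 1 and CTTN 3 than in any control. They are therefore not read as a rise of SULF2. SULF1, the other enzyme of this kind, had at most 7.9 counts in any library and was not tested.

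SDC1, the most abundant gene of the group, had estimated counts of 18910.6, 18498.7 and 19151.6 in control 1 to 3 and 18165.9, 17976 and 17708.2 in CTTN 1 to 3. The groups did not overlap but lay close. The log2 fold change was -0.07 ± 0.077 (SE), with a 95% interval of -0.29 to 0.14 and an adjusted p of 0.521 in the edgeR quasi-likelihood test with Benjamini-Hochberg adjustment. Over 17 alternatives the SDC1 value ran from -0.15 to -0.05 and the adjusted p from 0.0368 to 0.748, and it passed in 1, the offsets with CTTN 3 left out. SDC4 had 5735.4, 5503.8 and 5430 in the controls and 5215.3, 4729.2 and 5369.3 in the CTTN libraries. Again the groups did not overlap, and CTTN 2 was the lowest. SDC4 had a log2 fold change of -0.12 ± 0.084 (SE, 95% interval -0.36 to 0.11), with an adjusted p of 0.324 by the same edgeR test. With CTTN 2 alone the SDC4 value was -0.24. In the alternatives with more than 1 CTTN library SDC4 did not pass, with adjusted p-values from 0.0755 to 0.547 by their own tests.

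Counted together, 0 of the 9 genes other than HS6ST3 passed the edgeR test at an adjusted p under 0.05. Of all 14433 genes tested, 552 passed (3.82%), 296 higher in CTTN (2.05%) and 256 lower (1.77%), and 3.01% passed with a change of at least 1.5-fold. At an unadjusted p under 0.05 there were 3 of the 9 genes (HS6ST2, HS2ST1 and EXT1), beside 29.4% of all genes. DESeq2 called 1 of the 9, HS6ST2, beside 14.3% of all genes. The median log2 fold change of the 9 was -0.12, beside 0.01 over all genes. In CPM (counts scaled to library size), 8 of the 10 genes had groups that did not overlap, or 7 of the 9 without HS6ST3, beside 38.7% of all genes.

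The fit with offsets called more genes over the whole table. With length and GC offsets 2 of the 9 passed, EXT2 higher and NDST1 lower, beside 15.7% of all genes, 8.14% higher and 7.57% lower. With CTTN 2 as the only CTTN library the log2 fold changes of the 9 ran from -0.32 (HS6ST2) to 0.27 (HS6ST1). Leaving out CTTN 3, 0 of the 9 passed in edgeR (6 at an unadjusted p under 0.05), beside 8.54% and 27.7% of all genes by the same rules. Leaving out CTTN 2, 4 of the 9 passed, HS6ST2, HS2ST1, NDST1 and EXT1, all lower, beside 46.8% of all genes. With CTTN 2 alone the spread in the fit came from the controls only. Between 2 libraries of a group, counts differed by a chi-square per degree of freedom of 43.5 to 170.3 for CTTN and 4.16 to 6.87 for control. Only effect sizes are therefore given for that fit.

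**Figure D4:**
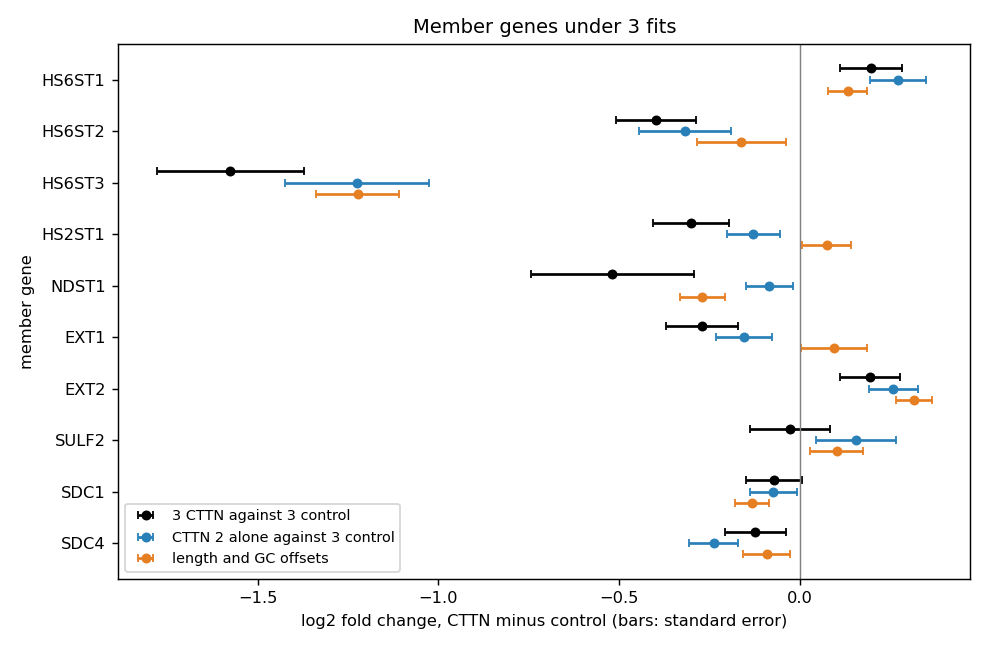
Log2 fold change of CTTN against control (horizontal axis, points) with its standard error (bars) for each member gene, fitted with all 3 CTTN libraries (black), with CTTN 2 as the only CTTN library (blue) and with transcript length and GC content taken out (orange). HS6ST3 lies at -1.58, -1.23 and -1.22, and HS2ST1 and EXT1 turn from -0.30 and -0.27 to 0.07 and 0.09 with the offsets.

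The 4 genes with transcripts over 6000 bases, HS6ST3, HS2ST1, NDST1 and EXT1, had log2 fold changes of -1.58, -0.30, -0.52 and -0.27, where the median of all such genes was -0.37. The 6 shorter ones ran from -0.40 (HS6ST2) to 0.20 (HS6ST1). In CTTN 2, the library without the trend, the differences from the control mean were -0.13 for HS2ST1, -0.08 for NDST1 and -0.16 for EXT1, while HS6ST3 stood at -1.20 and HS6ST2 at -0.31. How much of each difference in CTTN 1 and CTTN 3 moves with length was not tested library by library.

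**Figure D5:**
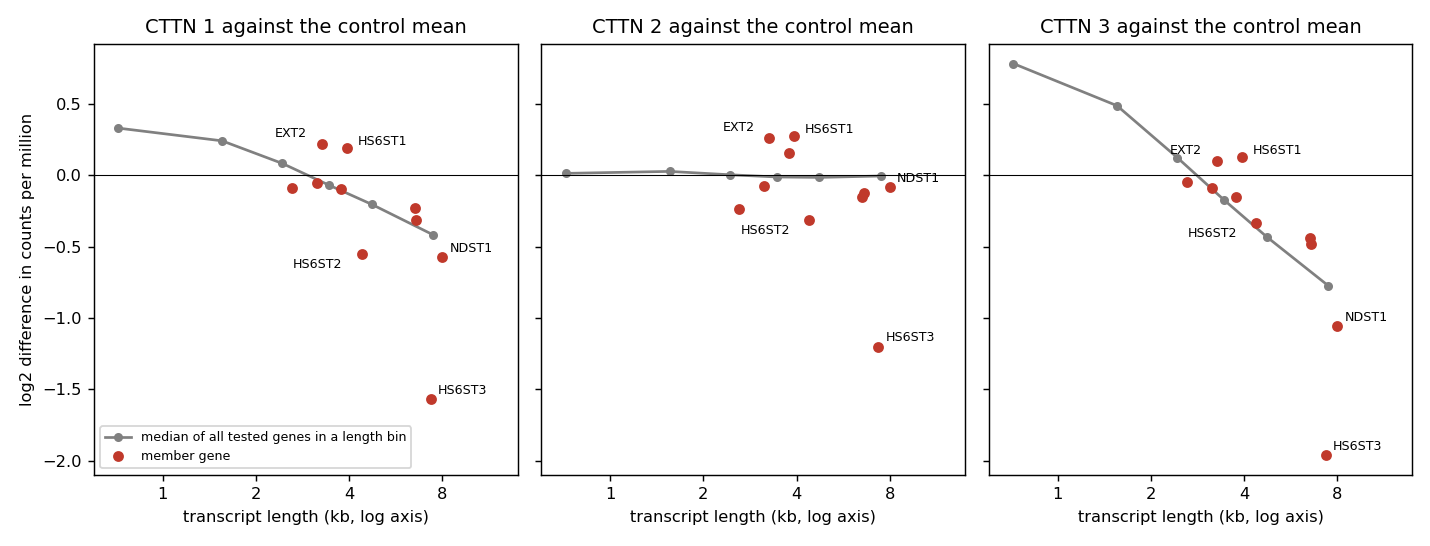
Log2 difference in CPM of CTTN 1, CTTN 2 and CTTN 3 from the control mean (vertical axis) against transcript length (horizontal log axis, kb), for the median of all tested genes in length bins (grey line) and for the 10 member genes (red). The grey line falls to -0.42 in CTTN 1 and -0.77 in CTTN 3 for the longest transcripts and stays at -0.01 in CTTN 2, and HS6ST3 lies below it in all 3.

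Beyond the 10 genes, 93 names of heparan and chondroitin sulfate genes and of ligands and receptors that bind the chains were listed, of which 69 could be tested. In the edgeR test 1 was higher and 1 lower, beside 2.05% and 1.77% of all genes. FGFR4, a fibroblast growth factor receptor, had estimated counts of 977.1, 974.9 and 1087.3 in control 1 to 3 and 1407.7, 1395.3 and 1653.5 in CTTN 1 to 3. Every CTTN library exceeded the controls, and FGFR4 rose by 0.55 on the log2 scale (adjusted p = 0.039 in edgeR with Benjamini-Hochberg adjustment). Over 17 alternatives the adjusted p of FGFR4 by their own tests reached 0.222, and not all of them called it. NRP1, a co-receptor for VEGF and semaphorins, had 1313.4, 1299.6 and 1372.8 in the controls and 686.2, 799.3 and 560.8 in the CTTN libraries. The groups were clearly apart, and NRP1 fell by 0.96 on the log2 scale (adjusted p = 0.017 in edgeR with Benjamini-Hochberg adjustment). Over 17 alternatives the adjusted p of NRP1 by their own tests reached 0.114, and not all of them called it. The median log2 fold change over the 69 genes was -0.08, beside 0.01 over all genes.

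By role, 0 of the 56 tested genes of the other lists passed the edgeR test (14 at an unadjusted p under 0.05, and 7 called by DESeq2), beside 3.82%, 29.4% and 14.3% of all genes by the same rules. All 7 genes that make the linker between core protein and chain were tested, with a median log2 fold change of 0.16, and B3GAT3, the glucuronosyltransferase that completes the linker, was the most abundant at 37.1 FPKM in the controls. The 3 chain-starting EXTL genes had a median of -0.05, led by EXTL3 at 5.62 FPKM. Of the other genes for N-sulfation and epimerisation 2 of 4 were tested, both below 0, led by NDST2 at 18.5 FPKM in a locus merged with other transcripts. For 3-O-sulfation 2 of 7 were tested, and the highest, HS3ST3B1, stood at only 0.683 FPKM. HPSE, the heparanase that cleaves chains outside the cell, was at 7.96 FPKM, with a log2 fold change of -0.15.

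The 9 tested core proteins other than the syndecans SDC1 and SDC4 were led by AGRN, which encodes agrin, at 109 FPKM. Their log2 fold changes ran from -1.06 to -0.01 with a median of -0.14. The lowest was GPC5 (a glypican), picked out after its values were seen, with 14.4 to 43.1 counts. It did not pass (-1.06 ± 0.239 SE, adjusted p = 0.0583, edgeR). HSPG2 (perlecan), also picked out after its values were seen, stood at -0.18 (adjusted p = 0.703, edgeR). Its value was 0.43 with CTTN 2 alone, -0.035 with length and GC offsets and 0.093 without CTTN 3. The 7 tested genes of lysosomal breakdown had a median of -0.14, with ARSG at 66.1 FPKM in a locus merged with PRKAR1A. The 12 tested genes of sugar and sulfate donors had a median of -0.05, with CANT1, a Golgi nucleotidase, the highest at 114 FPKM. The chondroitin sulfate branch, which shares the linker, had 13 tested genes with a median of -0.10 and CHPF, a chondroitin polymerising factor, the highest at 25.4 FPKM. Among ligands and receptors VEGFA was the most abundant at 45.9 FPKM, and the median of the 13 tested was 0.00.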

How the data were processed

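Per the labels and the study's methods, poly(A) RNA of SKBR3 cells was prepared with a stranded kit, reads were aligned with STAR to the human genome (the labels name GRCh38, which the deposited loci match), and genes were quantified with Cufflinks. The authors deposited estimated counts, scaled between libraries and rounded here to whole numbers, and FPKM for genes and start sites. Control libraries are numbered by column order, since the labels give these columns names that differ from the tables; their group was taken from the deposited list of libraries, whose values per library were not used. Genes were tested with edgeR 4.0.16 (R 4.3.3; quasi-likelihood F-test, TMM, filterByExpr with a minimum count of 10, robust), 3 CTTN against 3 control libraries, with Benjamini-Hochberg adjustment over all 14433 genes and a threshold of 0.05. All 10 members passed the count filter. DESeq2 1.42.0, limma 3.58.1 on log2(FPKM + 1) and the other settings were alternatives. Offsets for length and GC were splines with 5 degrees of freedom. The scripts were tested on simulated data. The members and all lists were chosen with earlier results of these data known. Named were all members, every pathway gene that passed, the most abundant gene of each list and the 3 nearest neighbours of HS6ST3. GPC5, HSPG2 and SULF1 were added after their values were seen. The leukocyte marker list is not reported here. The p-values measure the spread between these libraries. The deposited start-site tables were used the same way. Sequences came from RefSeq.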

Additional observations from a re-analysis of the deposited data

How the results depend on the processing

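Genes called over the whole table numbered 552, and were 2069 with DESeq2, 103 and 111 with limma on log2(FPKM + 1) and log2(FPKM + 0.1), 105 with a replicate block, 27 with the control columns named in the labels, 2267 with length and GC offsets, 2937 with the offsets and CTTN 3 left out, 2374 with CTTN 2 alone, and between 11 and 6890 when 1 library was left out. The lowest of these came without control 2 (11), control 3 (15), CTTN 1 (17) and control 1 (27), and the highest without CTTN 2 (6890) and CTTN 3 (1245). Members other than HS6ST3 called numbered 0. They were 1 with DESeq2, 2 with the offsets and 4 with the offsets and CTTN 3 left out. Leaving out 1 library gave between 0 and 4, the 4 coming without CTTN 2. Pathway genes called numbered 2. They were 10 with DESeq2, 14 with the offsets and 16 with the offsets and CTTN 3 left out. There were 0 with limma at either pseudocount, 0 with the replicate block and 0 with the control columns named in the labels. Leaving out 1 library gave between 0 and 28.

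Among the members, a sign turned only where the test was not passed. SULF2, at -0.03, was 0.133 and 0.163 with limma on log2(FPKM + 1) and log2(FPKM + 0.1), 0.102 with the offsets, 0.085 with the offsets and CTTN 3 left out, 0.156 with CTTN 2 alone, and between -0.134 and 0.034 when 1 library was left out. HS2ST1 was 0.074 and EXT1 0.094 with the offsets, and 0.005 and 0.012 with the offsets and CTTN 3 left out. HS6ST3 was below 0 in 17 of 17 alternatives, from -1.80 to -0.47, the last on log2(FPKM + 1), which understates low genes. It was chosen for its fall and these are refits of the same libraries, so that count is a description and no support. The cause of these shifts was not tested.

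The labels and the columns number the controls differently, and by column order CTTN and control libraries of the same number did not deviate together (correlations 0.028, 0.079 and -0.19), so the replicate block, which called 0 members, is not a paired analysis. Omitting TMM, dropping the filter and a stricter filter left 515, 712 and 532 genes called. Depth limits HS6ST3 most, at 45.4 to 194.5 counts. The offsets and CTTN 2 alone were chosen after seeing the data.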
